A study of Saccharomyces cerevisiae with 24 samples.

Results

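Small nucleolar RNAs (snoRNAs) were examined in RNA sequencing libraries of budding yeast (Saccharomyces cerevisiae, W303 background). They are the rows of the deposited expression table whose ids start with snR, less the spliceosomal RNAs that carry the same prefix. These were 76 of 7218 rows, and of 81 rows with the prefix, 5 were left out. The study compared a control strain, in which the condensin subunit Ycg1 carries a 3PK epitope, with ycg1Degron1, in which YCG1 was expressed from the MET3 promoter and the protein carried an IAA7 degron recognised by co-expressed OsTIR1. Both strains were grown at 25°C overnight in YNB with CSM lacking methionine, held in G1 with α-factor for 1.5 h, and moved to YPD with auxin at 88 μg/ml. The G1 sample was taken after 2 h in this medium, still in α-factor. The M sample was taken after release into YPD with auxin and nocodazole for 2 h. All libraries therefore came from cells given auxin and rich medium, the control included.

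From each RNA sample 1 library of total RNA (TOTAL), with ribosomal RNA left in, and 1 of polyA-selected RNA (POLYA) were made. The 24 libraries fall into 4 groups of 6, namely M TOTAL, M POLYA, G1 TOTAL and G1 POLYA. Column names add a code, 18 or 14, with 3 biological replicates each. The labels do not tie the codes to the strains, so libraries were compared by code and no strain is named. The p-values set a difference against the spread between these replicates. The main fits did not model that TOTAL and POLYA libraries share an RNA sample and that M and G1 libraries share a culture. The labelled arrests were checked against marker genes. Of 4 markers of G1 pheromone arrest (FUS1, FIG1, AGA1, PRM1) all 4 were lower in M than in G1 in both library types. Of 4 mitotic markers (CLB2, CDC20, CDC5, ASE1) all 4 were higher in M in both. In TOTAL libraries 95.5 to 96.0% of 13932403 to 21650529 counts were ribosomal, which left 564074 to 929935 non-ribosomal counts. POLYA libraries held 9644013 to 21666221. Levels below are counts per 1000000 non-ribosomal counts (CPM), and 3 counts, taken as the detection floor of a single library, correspond to at most 5.32 CPM in TOTAL and 0.311 CPM in POLYA.

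SnoRNAs guide chemical modification of ribosomal RNA in the nucleolus. Box C/D snoRNAs pair with ribosomal RNA and direct 2′-O-methylation by Nop1, whereas box H/ACA snoRNAs direct the conversion of uridine to pseudouridine by Cbf5, and a few members of either class are needed for cleavage of the ribosomal RNA precursor instead. In budding yeast most are transcribed alone, some are cut from shared precursors by the RNase III enzyme Rnt1 and some are released from introns of host mRNAs. Mature snoRNAs carry no polyA tail, and polyA tails occur on processing or decay intermediates. Of the 76 genes, 47 were box C/D and 29 box H/ACA, a class that RefSeq notes for the R64 assembly gave identically for all 76. By position, 51 stood alone, 17 (all box C/D) lay in 5 clusters, and 8 lay in introns of protein-coding genes (6 C/D and 2 H/ACA). Annotated length was 78 to 490 nt for C/D (median 98) and 161 to 1004 nt for H/ACA (median 204).

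The genome sequence of R64 (S288C, from RefSeq; the libraries are of W303) carries the expected boxes in most C/D genes. TGATGA, the sequence of the C box, was present at any position on the gene's strand in 40 of 47 C/D genes (85.1%). It was present in 3 of 29 H/ACA genes (10.3%) and 5.43% of 98-base windows of the nuclear genome, each strand taken alone. In snR24 the only TGATGA starts at base 83 of 89, so these are counts of the motif and not of C boxes. TGATGA within the first 20 bases together with CTGA, the D box, within the last 20 occurred in 36 of 47 C/D genes (76.6%), in 0 of 29 H/ACA genes and in 0.0727% of windows. The motifs share the letters TGA and may overlap where a C box follows a C. ACA lay 3 bases before the annotated end in 14 of 29 H/ACA genes and in 3 of 47 C/D genes.

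SnoRNAs took 3.84 to 5.01% of non-ribosomal counts in TOTAL libraries (26546 to 37694 counts) and 0.00689 to 0.0113% in POLYA libraries (716 to 1717 counts). A single TOTAL library held counts for 64 to 70 of the 76 genes, and a single POLYA library for 50 to 61. There were 59 genes with a count in all 12 TOTAL libraries and 36 in all 12 POLYA libraries. In TOTAL, 7 of the 100 highest of 7110 features were snoRNAs. In POLYA there were 0, and the highest, snR86, ranked 3668. The 10 highest genes in TOTAL held 77.0% of all snoRNA counts.

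U3 led the TOTAL libraries. It pairs with the ribosomal RNA precursor for the early cleavages that free 18S rRNA and is encoded by snR17a (chromosome XV, 780107-780596, plus strand) and snR17b (XVI, 281056-281517, minus strand). Over the 12 TOTAL libraries snR17a averaged 8827 ± 686 CPM (SD, n = 12), the highest of all 76. Its other copy, snR17b, averaged 3584 ± 660 CPM. The H/ACA RNA snR30, which acts in 18S processing, averaged 3240 CPM. U14, encoded by snR128, acts in 18S processing and also guides a methylation, and it averaged 282 CPM. The H/ACA RNA snR10, also linked to 18S processing, averaged 583 CPM and had the widest spread of the abundant members.

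Several of the other abundant members were H/ACA guides for pseudouridine in ribosomal RNA. These were snR86 (4068 CPM), snR37 (3446 CPM), snR83 (2350 CPM), snR82 (907 CPM) and snR11 (839 CPM). The C/D RNA snR4, linked to acetylation of a cytidine in 18S rRNA, averaged 1234 CPM, and snR45, linked to another such acetylation, averaged 216 CPM. The pseudouridine guide snR85 was low for its class, at 43.2 CPM. The coefficient of variation over the 12 TOTAL libraries was 4.90% for snR83 and 5.59% for snR4, against 43.1% for snR10, the largest among members with 1000 or more TOTAL counts.

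Members of one transcript differed widely in TOTAL counts. The C/D RNAs snR190, which acts in maturation of the large ribosomal subunit, and snR128 lie 70 bases apart on chromosome X and are cut from a shared precursor. In TOTAL, snR190 averaged 4028 CPM, or 21198 CPM per kb of annotated length, against 282 CPM, or 2240 CPM per kb, for snR128. On the per-length scale snR190 was the highest of all members. Both genes are shown whole, with the C and D boxes in capitals, since both carry the same boxes at both ends. SnR190 is at chrX:139761-139950 and snR128 at chrX:139566-139691, both on the minus strand.
snR190: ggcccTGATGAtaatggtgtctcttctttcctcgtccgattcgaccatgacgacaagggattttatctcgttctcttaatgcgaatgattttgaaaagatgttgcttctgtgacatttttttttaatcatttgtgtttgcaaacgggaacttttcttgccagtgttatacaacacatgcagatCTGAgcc
snR128: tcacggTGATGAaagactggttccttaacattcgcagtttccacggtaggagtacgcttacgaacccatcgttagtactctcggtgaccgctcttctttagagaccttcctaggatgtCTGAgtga

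**Figure D1:**
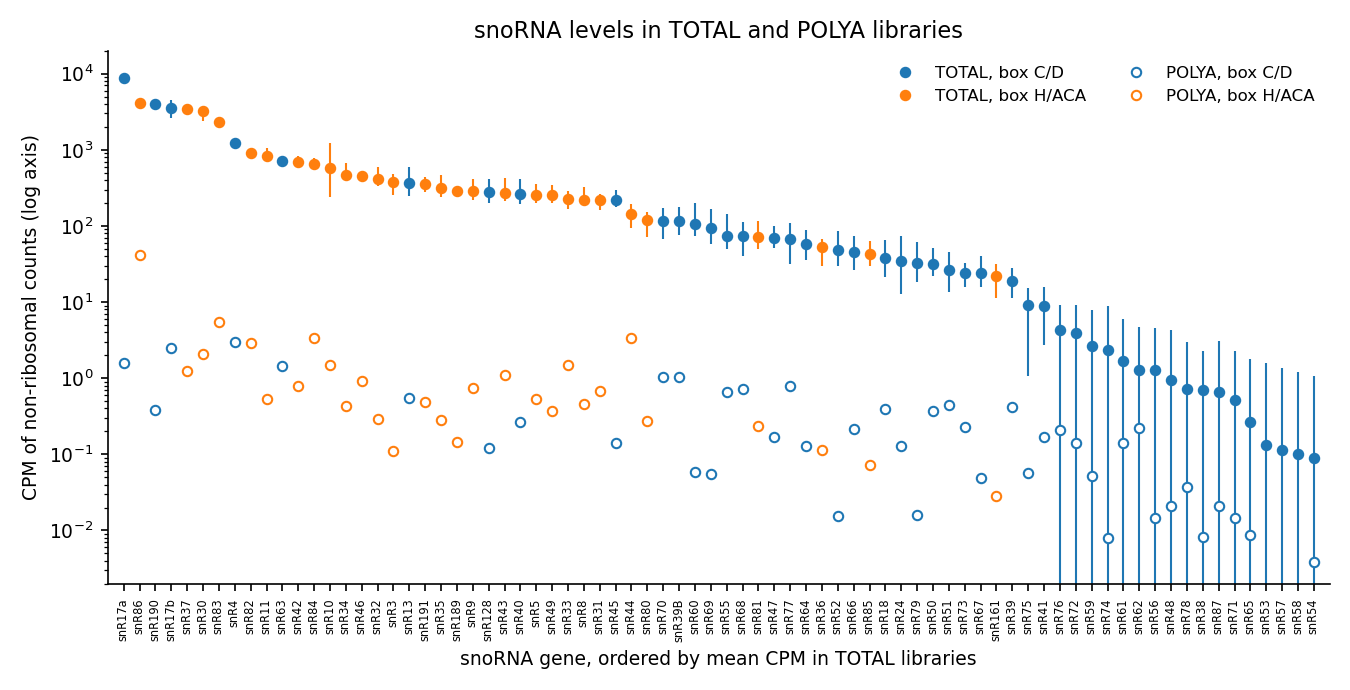
Level of each of the 76 snoRNA genes in CPM of non-ribosomal counts on a log axis, ordered by mean in TOTAL. Filled points are means of 12 TOTAL libraries with vertical lines over their range, open points are means of 12 POLYA libraries (3 genes at 0 in all POLYA libraries have no open point), and colour gives the box class. TOTAL means run from 8827 CPM for snR17a to 0.0896 CPM for snR54, and the POLYA point of snR86, at 41.7 CPM, stands above all other POLYA points.

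The remaining clusters also held unequal members. In the cluster snR57-snR55-snR61 the TOTAL means were 0.115, 74.4 and 1.67 CPM. In snR41-snR70-snR51 they were 8.75, 118 and 26.1 CPM, and in snR67-snR53 they were 23.7 and 0.131 CPM. The 7 members between snR78 and snR72 ranged from 0.721 CPM for snR78 to 68.0 CPM for snR77. All of these are C/D guides of 82 to 164 nt. Intron-hosted members ranged as widely. Among these, snR191, in the intron of NOG2, a GTPase gene of large subunit assembly, averaged 356 CPM. SnR44, in RPS22B, averaged 142 CPM, snR18, in EFB1, 38.1 CPM, snR24, in ASC1, 34.3 CPM and snR39, in RPL7A, 18.7 CPM. The others, snR59 in RPL7B, snR38 in TEF4 and snR54 in IMD4, averaged 2.62, 0.701 and 0.0896 CPM.

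The level per gene went with annotated length. Spearman's correlation between length and mean TOTAL CPM was 0.83 over the 76 genes, which are not independent replicates and share the same libraries, and 0.33 over the 40 C/D genes under 150 nt. The 26 genes under 100 nt had a median of 8.99 CPM, and the 30 of 100 to under 200 nt had 112 CPM. The 12 genes of 200 to under 300 nt had a median of 334 CPM, and the 8 of 300 nt or more had 3343 CPM. The rise was also seen per kb of length, with medians of 97.9, 823, 1414 and 6513 CPM per kb in the same order. Length differed between the classes, and the C/D median was 31.8 CPM against 312 CPM for H/ACA. The study cleaned up its RNA with the RNeasy Mini Kit. Transfer RNAs, which are also short, took 0.000572 to 0.00762% of non-ribosomal counts in M TOTAL and 0.00152 to 0.00476% in G1 TOTAL. The parts of length and of the recovery of short RNAs in these levels were not tested. Differences between genes of unlike length may therefore not be differences in the cell.

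There were 12 genes, all C/D and of 86 to 113 nt, with 12 or fewer counts summed over all 12 TOTAL libraries (snR38, snR48, snR53, snR54, snR56, snR57, snR58, snR62, snR65, snR71, snR78 and snR87). TGATGA was present in 11 of the 12. These genes did not pass the low-count filter in any fit of all libraries. Some detected members were of similar length, and the following pair is an example. The part of length in detection was not tested. SnR38, in an intron of TEF4 (chrXI:283185-283279, plus strand, 95 nt), had 6 counts over the 12 TOTAL libraries. SnR52 (chrV:431129-431220, minus strand, 92 nt), which stands alone, had 416. Both guide methylation of ribosomal RNA, and both have the C and D boxes, shown in capitals, at the same distances from their ends.
snR38: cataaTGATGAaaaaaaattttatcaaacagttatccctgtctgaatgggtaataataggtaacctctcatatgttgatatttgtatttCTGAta
snR52: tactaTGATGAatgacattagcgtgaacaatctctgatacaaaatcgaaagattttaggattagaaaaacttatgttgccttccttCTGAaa

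**Figure D2:**
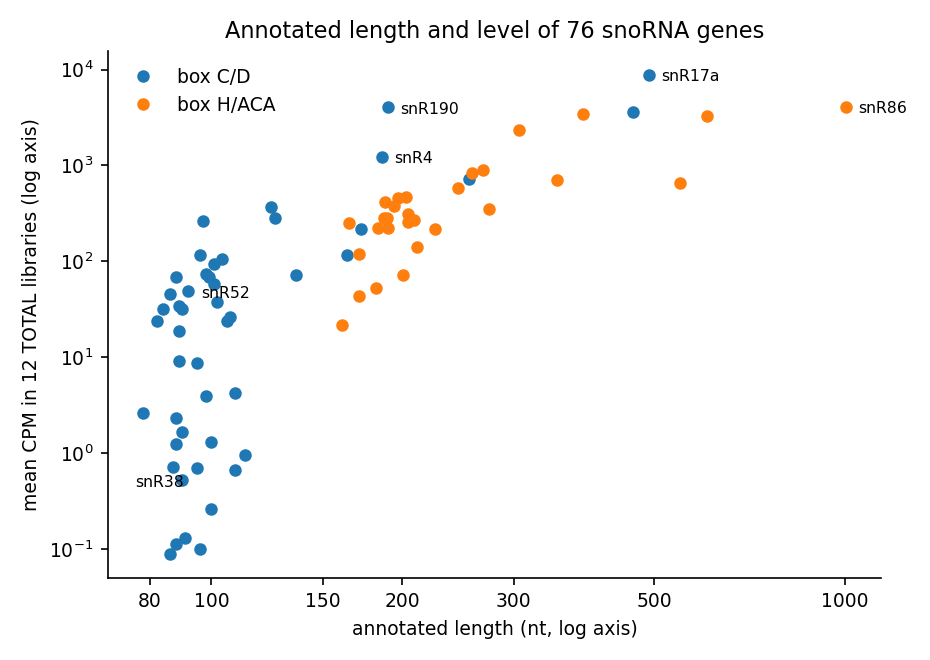
Annotated length in nt against mean CPM in the 12 TOTAL libraries for the 76 snoRNA genes, both on log axes, with colour for box class. C/D genes of similar length, such as snR38 (0.701 CPM) and snR52 (48.7 CPM), lie far apart on the vertical axis, whereas all H/ACA genes lie above 21 CPM.

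TOTAL and POLYA libraries of the same RNA were compared within each arrest. Nearly all snoRNAs that could be tested took a far larger share of TOTAL than of POLYA libraries. In M, 64 of 64 tested members were higher in TOTAL than in POLYA (edgeR quasi-likelihood test, Benjamini-Hochberg adjusted p of 0.05 or less), where 14.3% of all 5839 features tested were called higher. In G1, 63 of 64 were higher, where 15.8% of all features were. The median log2 difference was 9.10 in either arrest, against -0.05 in M and -0.06 in G1 over all features. The member not called in G1 was snR61, a C/D guide with few counts (log2 3.50, SE 1.44, adjusted p = 0.0657), for which the value was 0.88 without G1 code 14 TOTAL replicate 1. In all, 59 members were higher in every TOTAL library than in every POLYA library. The same count over all features was not made, so this number has no background share beside it. The low-count filter ran over all 24 libraries, and only 23 members passed it when POLYA was fitted alone. Most members were thus tested because of their TOTAL counts, which favours calls of higher in TOTAL. Without the filter, 69 of 76 members were called in M and 66 of 76 in G1. Of all 6772 features then tested, 1545 were called in M and 1842 in G1, in either direction.

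The largest differences belonged to snR190 and to the U3 gene snR17a. SnR190 had 3611, 3590 and 3921 CPM (code 18) and 4428, 4483 and 4273 CPM (code 14) in M TOTAL, against 0, 0.0981 and 0.527 CPM (code 18) and 0.519, 0.576 and 0.306 CPM (code 14) in M POLYA. The log2 difference was 13.99 (SE 0.249) in M and 13.77 (SE 0.244) in G1, with adjusted p of 3.315e-23 and 3.095e-23. It rested on few POLYA counts, and was 15.05 without M code 18 POLYA replicate 3 and 14.46 without G1 code 18 POLYA replicate 3. For snR17a it was 12.91 (SE 0.212) in M and 13.03 (SE 0.212) in G1. Differences near 12 were found for the pseudouridine guides snR3 (12.50 in M and 11.91 in G1) and snR37 (11.85 in M and 11.95 in G1), where snR3 was 13.23 without M code 14 POLYA replicate 3 and 12.65 without G1 code 18 POLYA replicate 2. The methylation guide snR69 had a fitted log2 difference of 11.83 in G1, from 429 TOTAL counts and 2 POLYA counts, a pooled ratio of 3873 with a 95% counting interval of 1066 to 32090. SnR52 had 0 counts in all 6 M POLYA libraries, and was at least 1176-fold higher in M TOTAL when 3 counts over those libraries were taken as the floor. Counting intervals and floors cover counting error only.

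SnR86 was the most abundant snoRNA of the POLYA libraries. Its POLYA level was 33.7, 40.1 and 41.4 CPM (code 18) and 39.7, 46.5 and 39.0 CPM (code 14) in M, and 42.3, 41.9 and 55.2 CPM (code 18) and 34.5, 44.6 and 41.9 CPM (code 14) in G1. It held 46.8% of all snoRNA counts in POLYA, against 9.63% in TOTAL. Annotated at 1004 nt, it is the longest of the members. TOTAL still exceeded POLYA for this gene, by log2 7.17 in M and 6.98 in G1. The next highest in POLYA was snR83, at 5.51 CPM on average.

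Small differences were found mainly among intron-hosted and clustered members. The lowest were the clustered C/D guides snR61, snR72 and snR76. They had 3.68, 4.96 and 4.98 in M, and 3.50, 5.81 and 4.54 in G1. Among intron-hosted members, snR59 had 4.96 in M and 6.56 in G1. SnR39 had 5.87 in M and 5.91 in G1, and snR44 had 5.70 in M and 6.01 in G1. The values of snR61, snR72, snR76 and snR59 rest on few TOTAL counts. Their TOTAL means were 1.67, 3.93, 4.30 and 2.62 CPM, below the highest single-library floor of 5.32 CPM, and SEs reached 1.44. Not all clustered members were low, as snR190 had 13.99 and snR128 11.44 in M. Nor were all intron-hosted members, as snR191 had 10.22 in M and 9.76 in G1. For snR24, also intron-hosted, the values were 8.94 in M and 8.06 in G1. SnR44 was relatively abundant in POLYA, at 3.35 CPM on average. The medians of the log2 difference were 6.63 in M and 6.61 in G1 over 6 intron-hosted members tested, 7.06 in M and in G1 over 14 clustered members, and 9.61 in M and 9.63 in G1 over 44 that stand alone. By class they were 8.12 in M and 8.06 in G1 for C/D, and 9.50 in M and 9.37 in G1 for H/ACA. These medians are descriptions and position, class and length overlap. Of the host mRNAs, 5 of 8 were also called higher in TOTAL than in POLYA, where 14.3% of all features were in M and 15.8% in G1, with log2 differences over all 8 of -0.19 to 0.58 in M and -0.19 to 0.83 in G1.

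The U3 copies differed in this respect too. In TOTAL snR17a exceeded snR17b in all 12 libraries. In POLYA the means were 1.58 CPM for snR17a and 2.52 CPM for snR17b, so that snR17b held 50.0 to 85.7% of U3 counts in M POLYA and 45.3 to 68.2% in G1 POLYA. These shares rest on few counts, 233 for snR17a and 392 for snR17b over all 12 POLYA libraries. The highest, in M code 18 replicate 2, came from 5 counts of snR17a and 30 of snR17b. The spliceosomal RNAs, which also lack polyA tails, were also higher in TOTAL. For LSR1 (U2) the level was 9085 to 11380 CPM in TOTAL and 18.5 to 47.8 CPM in POLYA, and for snR19 (U1) it was 2748 to 3581 CPM in TOTAL and 1.99 to 7.29 CPM in POLYA.

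M and G1 were compared in TOTAL libraries to ask whether snoRNA levels differ between the arrests. Of 57 members tested, 1 was called, where 23.8% of all 4960 features were called in either direction. The median log2 difference of the members was -0.03, and that of all features was 0.00. The member was snR17b, higher in M. At an unadjusted p under 0.05 there were 3 members, 1 higher and 2 lower, where 1701 of all 4960 features passed. The M cells came from the G1 cultures, were sampled later and had passed S phase, so arrest, time in rich medium and drug cannot be told apart. In such bulk libraries a change in the number of expressing cells and one in RNA per cell cannot be told apart.

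SnR17b had 3849, 3842 and 4479 CPM (code 18) and 4466, 4225 and 4127 CPM (code 14) in M, against 3152, 3180 and 3301 CPM (code 18) and 2976, 2597 and 2812 CPM (code 14) in G1. All 6 M libraries lay above all 6 G1 libraries. The log2 difference was 0.43 (SE 0.0572, adjusted p = 2.256e-05, edgeR). For snR17a, with means of 8702 ± 751 CPM in M and 8951 ± 660 CPM in G1 (SD, n = 6 each), the log2 difference was -0.09 and was not called. With both U3 rows summed, the log2 difference was 0.06 (SE 0.0514, adjusted p = 0.412). What differed was the division of U3 counts between the copies. SnR17b held 31.0 to 34.9% of them in M (32.4 ± 1.38%) and 22.8 to 28.2% in G1 (25.2 ± 2.44%), a measure chosen after its values were seen. The two-sided exact permutation p was 0.002165, the smallest possible when 6 against 6 libraries are exchanged freely. Such exchange ignores that M and G1 libraries share cultures and that the codes differed in G1. Within code 18 the share was 32.1 to 34.9% in M and 26.7 to 28.2% in G1, and within code 14 it was 31.0 to 32.8% in M and 22.8 to 23.2% in G1.

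RSEM divides reads that fit both copies, and both had non-whole expected counts in 17 of 24 libraries. The sequences nevertheless differ at many positions. Over the annotated genes, introns included, 398 of 491 aligned positions were identical (81.1%), the longest identical run was 77 bases, and 2 of the 415 windows of read length (76 bases) in snR17a occurred whole in snR17b. Trimmed reads and reads across the splice junction were not considered. The last 160 bases of each copy are shown, with the bases that differ between the copies in capitals, at chrXV:780437-780596 (plus strand) and chrXVI:281056-281215 (minus strand). The differing bases are spread over most of this stretch, and the 3′ end is identical.
snR17a: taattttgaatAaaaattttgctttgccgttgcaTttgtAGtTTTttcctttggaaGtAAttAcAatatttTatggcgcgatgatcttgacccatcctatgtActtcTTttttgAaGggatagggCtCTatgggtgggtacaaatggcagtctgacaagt
snR17b: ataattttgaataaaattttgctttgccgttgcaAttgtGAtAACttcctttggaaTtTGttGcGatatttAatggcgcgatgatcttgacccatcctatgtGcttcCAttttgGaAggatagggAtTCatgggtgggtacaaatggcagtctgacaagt

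**Figure D3:**
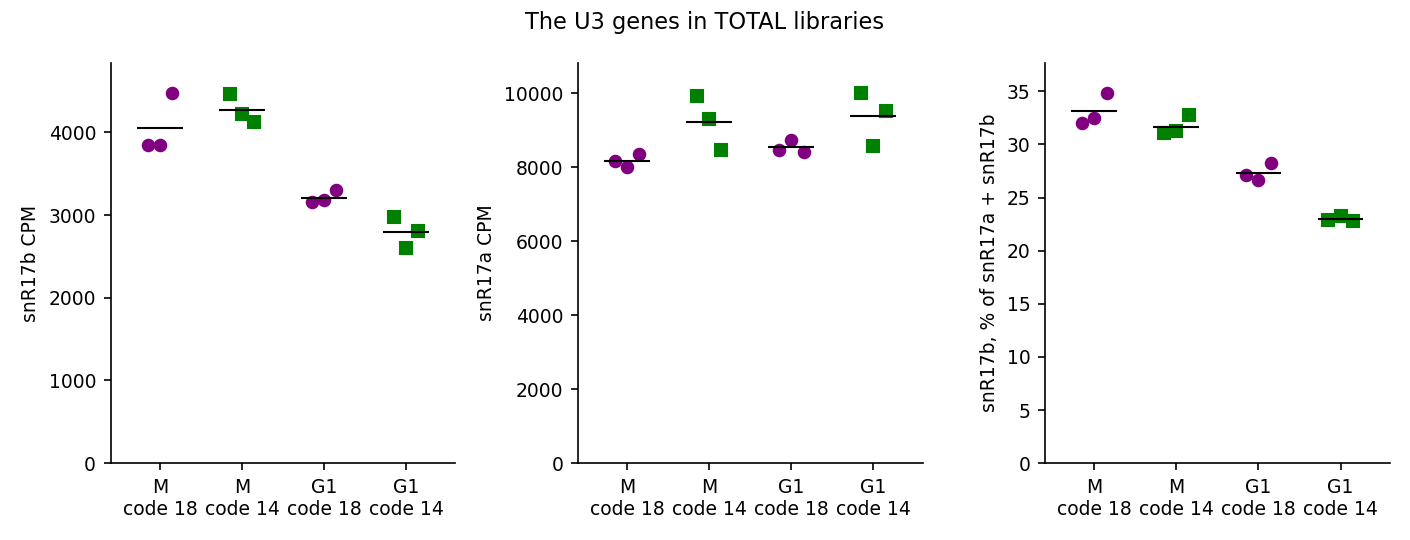
The 2 U3 genes in the 12 TOTAL libraries, by arrest and column code: CPM of snR17b (left), CPM of snR17a (middle) and the share of snR17b in their sum in % (right). Points are libraries and horizontal lines are means of 3. SnR17b lies at 3842 to 4479 CPM in M and 2597 to 3301 CPM in G1, without overlap, whereas snR17a overlaps between the arrests.

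Further members were called in this comparison under other settings. A fit with the culture as a block called 2 of 57, adding snR55, a methylation guide for 18S rRNA, which had a log2 difference of -0.46 (adjusted p = 0.0554) without the block. Leaving out M code 14 replicate 1 raised the count to 4, adding snR40, snR55 and snR81, all lower in M. SnR55 had 53.7, 49.9 and 57.7 CPM (code 18) and 92.2, 74.1 and 53.5 CPM (code 14) in M, against 69.7, 80.8 and 63.5 CPM (code 18) and 145, 82.2 and 70.3 CPM (code 14) in G1, and the arrests overlapped.

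In POLYA libraries only 23 members passed the low-count filter, and 2 of them were called higher in M than in G1, where 51.0% of all 5832 features were called. They were snR46, a pseudouridine guide (log2 0.82, SE 0.30, adjusted p = 0.0353), and snR63, a methylation guide for 25S rRNA (log2 0.72, SE 0.26, adjusted p = 0.0380). Counts were low. SnR46 had 19, 9 and 25 counts (code 18) and 14, 12 and 9 counts (code 14) in M, against 8, 7 and 8 (code 18) and 7, 10 and 12 (code 14) in G1. SnR63 had 35, 16 and 32 counts (code 18) and 11, 26 and 18 counts (code 14) in M, against 19, 15 and 17 (code 18) and 6, 18 and 14 (code 14) in G1. In CPM both genes overlapped between the arrests. With the culture as a block 1 was called (snR63, while snR46 had an adjusted p of 0.0551), and DESeq2 called 0. The call count was 0 to 3 when 1 library was left out, and it was 0 without any one of 6 libraries, namely G1 code 18 replicate 1, M code 18 replicates 1 and 3, G1 code 14 replicates 1 and 2, and M code 14 replicate 2.

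Protein genes of the snoRNA machinery were also compared between the arrests, where 51.0% of all features were called in either direction in POLYA and 23.8% in TOTAL. In POLYA, 2 of 4 C/D core protein genes were lower in M than in G1 (NOP56 by log2 -0.17 and NOP58 by -0.16), as were 3 of 4 H/ACA core genes (CBF5, the pseudouridine synthase, -0.26, NHP2 -0.25 and GAR1 -0.21). Of 21 assembly and processing genes, 9 were lower and 1, the cap methyltransferase gene TGS1, was higher (0.23). Among the 9, RRP6, the nuclear exosome nuclease that trims snoRNA 3′ ends, fell by 1.34 on the log2 scale (SE 0.072, adjusted p = 2.429e-08), and RNT1 fell by 0.42. In TOTAL, 1 of 4 C/D core genes (NOP56, -0.19), 0 of 4 H/ACA core genes and 3 of 20 assembly and processing genes were lower (RRP6 -1.30, the exosome helicase gene MTR4 -0.33 and the termination helicase gene SEN1 -0.24), and none was higher. The host genes moved in both directions. In both library types RPL7A was higher in M (0.26 in POLYA and 0.20 in TOTAL) and RPS22B lower (-0.32 in POLYA and -0.28 in TOTAL), while ASC1 (0.39) and NOG2 (-0.30) passed in POLYA alone. These are values of mRNAs, and their relation to the snoRNA levels was not tested.

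Libraries of code 18 and code 14 were then compared within each arrest. In G1 TOTAL, 0 of 57 members were called, where 8.61% of features were, and the median log2 difference was -0.03. Here 1 member had an unadjusted p under 0.05 in edgeR, where 956 of all 4960 features passed, and DESeq2 called 0. Without G1 code 14 replicate 1 the count was 1, snR80, and the median was 0.12. In M TOTAL the members lay mostly on one side. There 56 of 57 fitted differences were below 0, that is lower in code 18, where 51.4% of all features were. The median of the members was -0.25, against -0.01 for all features. Single members rarely passed the test, with 1 of 57 called, where 3.73% of all features were called. At an unadjusted p under 0.05 there were 19 of 57, all lower in code 18, where 800 of all 4960 features passed in either direction. In 15 members all 3 code 18 libraries lay below all 3 code 14 libraries in M TOTAL, where this held for 9.5% of all features tested.

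The member called was snR33, an H/ACA guide for a pseudouridine of 25S rRNA (chrIII:142364-142546, minus strand). It had 169, 209 and 183 CPM in code 18, against 277, 289 and 225 CPM in code 14, in M TOTAL, without overlap. The log2 difference was -0.52 (SE 0.137, adjusted p = 0.0421, edgeR). In G1 TOTAL it had 251, 206 and 224 CPM in code 18, against 268, 200 and 193 CPM in code 14, which overlapped. Its gene is shown as the one that passed this test, with the ACA box in capitals 3 bases before the end.
snR33: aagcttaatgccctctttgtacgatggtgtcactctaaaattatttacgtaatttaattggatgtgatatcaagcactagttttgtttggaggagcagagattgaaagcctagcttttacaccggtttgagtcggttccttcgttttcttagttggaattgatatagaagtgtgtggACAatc

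The call depended on single libraries. It was lost under DESeq2 (adjusted p = 0.0643) and without any one of 4 libraries, namely M code 18 replicates 1 and 3 and M code 14 replicates 1 and 2 (adjusted p of 0.121 to 0.213). The count of called members was 0 without M code 18 replicate 1, M code 14 replicate 1 or M code 14 replicate 2, and 2 without M code 18 replicate 3, where snR33 was not among them, or without M code 14 replicate 3. Of the 57 members, 34 had their highest TOTAL level in M code 14 replicate 1 and 17 in G1 code 14 replicate 1. M code 14 replicate 1 was also the shallowest TOTAL library, with 564074 non-ribosomal counts. Without M code 14 replicate 1 the median difference was -0.12, and 43 of 59 members tested were below 0. The share of snoRNAs in M TOTAL was 3.84, 4.02 and 4.21% in code 18, against 5.01, 4.48 and 4.30% in code 14 (two-sided exact permutation p = 0.1, the smallest that 3 against 3 allows). In G1 TOTAL it was 4.07 ± 0.0176% in code 18 and 4.23 ± 0.404% in code 14 (SD, n = 3 each, exact permutation p = 0.7). The share of spliceosomal RNAs was also lower on average in code 18, with 1.31 ± 0.0680% in code 18 and 1.48 ± 0.101% in code 14 in M, and 1.34 ± 0.0618% in code 18 and 1.48 ± 0.0496% in code 14 in G1 (SD, n = 3 each, exact permutation p = 0.1 in each arrest), and their part in the snoRNA result was not tested. The markers of pheromone arrest named above (FUS1, FIG1, AGA1 and PRM1) also differed between the codes. They were lower in code 18 for 2 of 4 genes in M TOTAL (median log2 difference of the 4 -1.23) and for 3 of 4 in G1 TOTAL (median -0.87), where 3.73% and 8.61% of all features were called in either direction, while 0 of 4 mitotic markers were called in either, and their part in the snoRNA result was not tested.

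**Figure D4:**
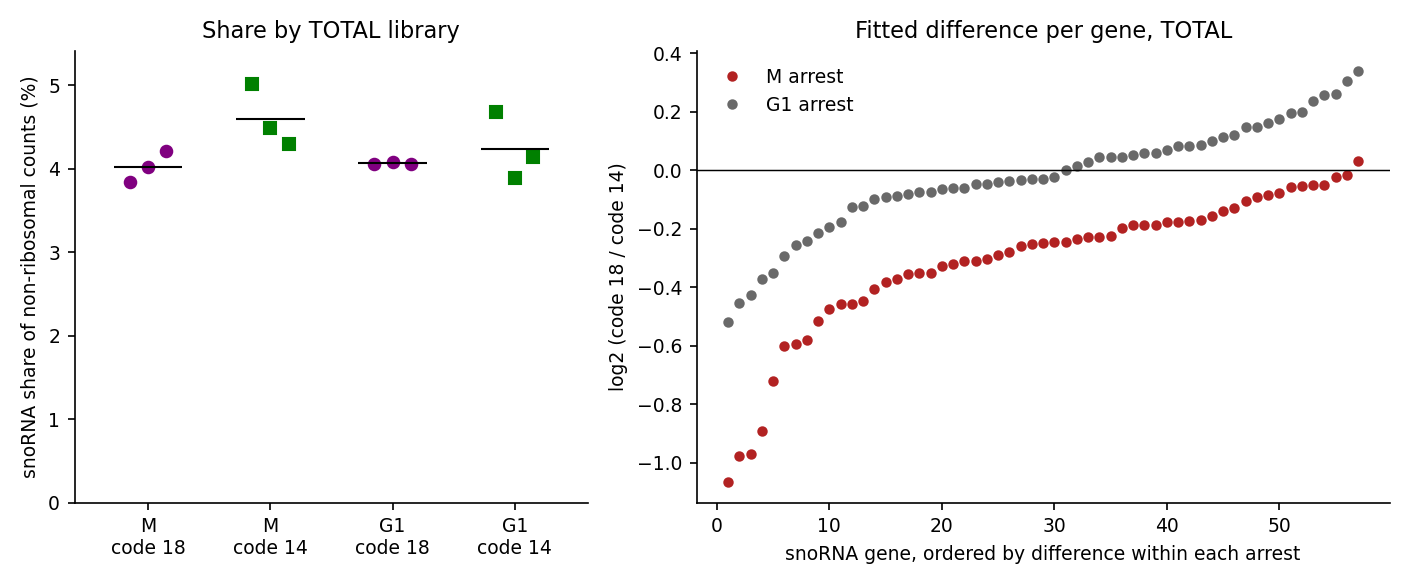
Left, share of snoRNAs in non-ribosomal counts (%) of each TOTAL library, by arrest and column code, with lines at means of 3 libraries. Right, fitted log2 difference of code 18 over code 14 for each of 57 snoRNA genes in TOTAL, ordered within each arrest: 56 of 57 lie below 0 in M and 30 of 57 in G1.

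The code difference in M minus that in G1 was also tested. In TOTAL 0 of 57 members were called, where 2.62% of all 4960 features were. At an unadjusted p under 0.05 there were 7 members, where 752 of all features passed. Of 57 values 54 were below 0, where 48.95% of all features were. The median of the members was -0.25, and DESeq2 also called 0. In POLYA, 0 of 23 members differed between the codes in G1 (15.9% of features) or in M (6.41% of features called higher and 5.54% lower). For the code difference in M minus that in G1, 0 of 23 were called (3.72% of features). At an unadjusted p under 0.05 there were 1, 0 and 0 members, where 1744, 1484 and 1247 of all 5832 features passed. DESeq2 called 0 in these comparisons too.

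The largest difference between the codes in M TOTAL was that of snR10, and here the counting matters. The gene (chrVII:345986-346230, plus strand, 245 nt) shares 216 bases with the row YGL088W (chrVII:345836-346201), which is annotated on the same strand. The sequence is shown with these shared bases in capitals, which leaves 29 bases that only snR10 holds.
snR10: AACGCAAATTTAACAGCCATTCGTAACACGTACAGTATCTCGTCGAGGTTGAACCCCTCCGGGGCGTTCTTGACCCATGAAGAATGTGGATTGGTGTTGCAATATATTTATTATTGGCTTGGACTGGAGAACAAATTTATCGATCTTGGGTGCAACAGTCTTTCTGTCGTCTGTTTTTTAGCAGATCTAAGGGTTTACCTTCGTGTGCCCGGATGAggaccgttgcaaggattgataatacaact

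SnR10 had 239, 418 and 531 CPM in code 18, against 1216, 633 and 621 CPM in code 14, in M TOTAL. The log2 difference was -1.07 (SE 0.301, adjusted p = 0.0584). YGL088W ran the other way, with 982, 867 and 756 CPM in code 18, against 521, 654 and 710 CPM in code 14. The sum of the rows was 1221, 1284 and 1287 CPM in code 18, against 1737, 1288 and 1331 CPM in code 14, with a log2 difference of -0.21 (SE 0.105, adjusted p = 0.354). Over all 12 TOTAL libraries the share of snR10 in the sum ranged over 19.6 to 70.0%, and the coefficient of variation was 43.1% for snR10 and 10.9% for the sum. SnR10 had non-whole expected counts in 13 of 24 libraries. In POLYA, YGL088W had 0 to 0.231 CPM, while snR10 had 0.646 to 2.78 CPM. The level of snR10 alone is therefore uncertain in these libraries.

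**Figure D5:**
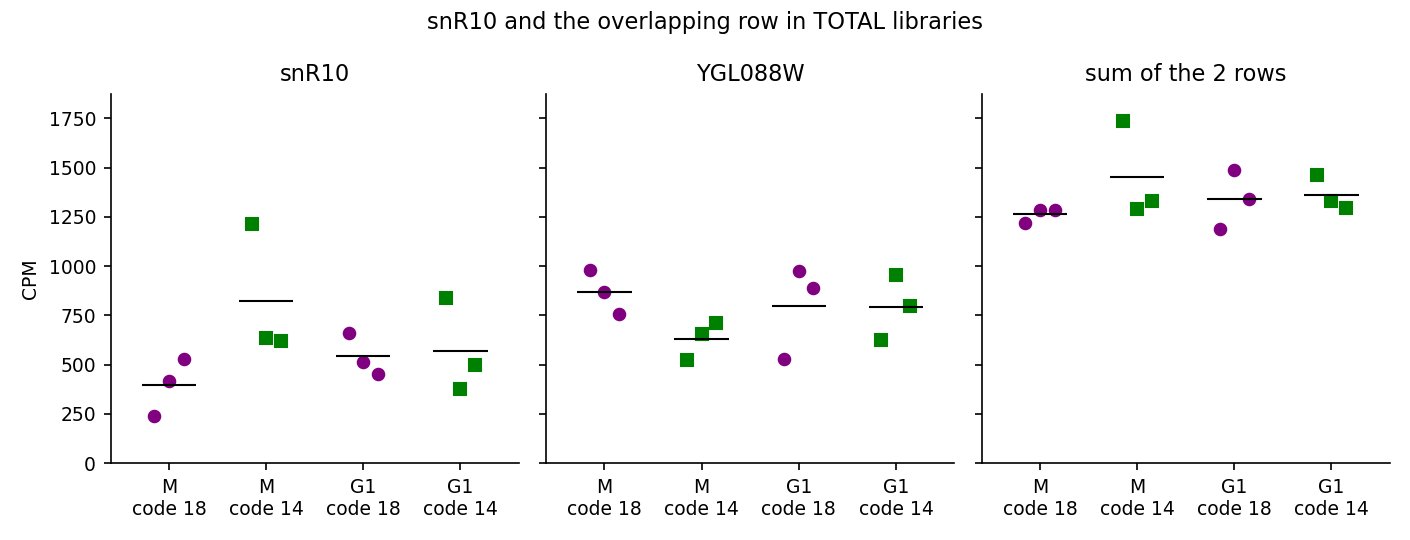
CPM of snR10 (left), of the overlapping row YGL088W (middle) and of their sum (right) in the 12 TOTAL libraries, by arrest and column code, with lines at means of 3. SnR10 spans 239 to 1216 CPM and the sum 1187 to 1737 CPM.

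Other members overlapped rows with few counts. SnR60 shares 49 of 104 bases with YJL047C-A, which had 0 to 8.86 CPM in TOTAL against 73.5 to 199 CPM for snR60. The first 78 bases of snR17a lie in IRC13 on the same strand, a row with 1 count over all TOTAL libraries and 0 over all POLYA libraries.

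The protein genes were compared between the codes in the same fits. In M TOTAL, 0 of 4 C/D core, 0 of 4 H/ACA core, 0 of 20 assembly and processing and 0 of 8 host genes were called, with list medians of -0.26, -0.14, -0.20 and -0.09. In M POLYA, NOP56 (-0.32, adjusted p = 0.00223) and CBF5 (-0.30, adjusted p = 0.0121) were lower in code 18, as were 3 of 21 assembly and processing genes, RRP6 among them (-0.46, adjusted p = 0.0121), where 5.54% of all features were lower. In G1 TOTAL, 4 of 8 host genes were higher in code 18, namely IMD4 (0.51), RPL7B (0.45), ASC1 (0.41) and RPL7A (0.41), where 4.54% of all features were higher, and the median of the 8 was 0.34. In G1 POLYA, 1 of 8 was higher, where 7.53% of all features were, and the median of the 8 was 0.11. Of the snoRNAs in the introns of those 4 genes, snR54 and snR59 had too few counts to be tested, and snR24 (0.15) and snR39 (0.03) were not called.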

How the data were processed

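RNA was sequenced in 24 libraries (76 bp, single-end, strand-specific). Per the study's methods, the authors trimmed reads with cutadapt 1.9.1 and made the deposited expected counts with RSEM 1.3.0 and STAR 2.5.2a on Ensembl R64 with ERCC sequences. RSEM divides a read that fits several rows, and 97.4% of the snoRNA values were whole numbers. A further 24 per-sample columns (TPM) were not used. The members and gene lists were chosen with earlier results of these data known.

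Expected counts were rounded, and 16 ribosomal RNA and 92 ERCC rows were left out, which kept 7110. edgeR 4.0.16 was run with filterByExpr, TMM scaling and quasi-likelihood tests over all features, with Benjamini-Hochberg adjustment and a threshold of 0.05, in 1 fit of all libraries (TOTAL against POLYA) or 1 per library type, with a mean for each arrest and code. On simulated data for M against G1 at a fold of 2, 96.5% of 200 changed features were recovered in TOTAL (4926 features) and 99.5% in POLYA (5803 features). Of the features called, 3.5% in TOTAL and 5.24% in POLYA were unchanged ones. The changed features were drawn from those with more counts, with a fixed dispersion. Recovery of smaller changes and of members with few counts was not covered.

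M and G1 libraries of a number share a culture, and TOTAL and POLYA libraries share the RNA sample, by the study's design. Deviations of such pairs correlated at -0.0149 to 0.21 (RNA sample, 12 pairs), 0.0197 to 0.0969 (culture, TOTAL) and -0.201 to 0.513 (culture, POLYA). The named genes were the 10 highest in TOTAL, up to 5 called in each direction per comparison, members with roles beyond base modification, intron-hosted and clustered members, and protein genes of snoRNA assembly, processing and introns. Others were named after their values were seen. Alternatives were DESeq2 1.42.0, TMM on protein-coding features, no low-count filter, ribosomal RNA kept, a replicate block, each library left out and, chosen after seeing the data, overlapping or similar rows summed. Sequences and positions came from RefSeq R64, in which all 76 genes were matched.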

Additional observations from a re-analysis of the deposited data

Results flagged for a closer look

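In groups of 6 libraries, 46 groups were screened for a library that stood far from the other 5, and 3 did, where chance gives about 1 in 20. The snoRNA share of G1 TOTAL was 4.68% in code 14 replicate 1, and the next highest was 4.14%. This library also held the highest TOTAL level of 17 members. SnR11, a pseudouridine guide, had 716 CPM in G1 TOTAL code 14 replicate 2, the lowest of its group, and the next was 814 CPM. SnR46 had 1.24 CPM in G1 POLYA code 14 replicate 3, and the next was 0.674 CPM. Without that library its difference between M and G1 in POLYA was 1.02 on the log2 scale.

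ERCC spike-in sequences, which no comparison used, had at least 191 counts in every TOTAL library (191 to 646) and 2193 to 9018 counts in POLYA libraries.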

How the results depend on the processing

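In TOTAL against POLYA, the number of members called higher was 59 to 65 in G1 and 59 to 64 in M when any library was left out, and no called value changed sign under the settings tried. Of the counts of called members recomputed under another setting, 129 stayed within the limits set and 27 moved. For M against G1 in TOTAL, 2 members were called without the low-count filter and 2 with the culture as a replicate block, 0 with rows summed, and 1 to 4 with a library left out. For M against G1 in POLYA, 1 was called with the block, 0 by DESeq2 and 0 to 3 with a library left out. For code 18 against code 14 in M TOTAL, 2 were called without the filter (snR10 added), 2 with the replicate number as a block (snR60 added), 0 by DESeq2 and 0 to 2 with a library left out. In G1 TOTAL, 1 was called with that block (snR17b, 0.24) and 0 to 1 with a library left out. Code libraries share only a number, and deviations of same-numbered libraries correlated at -0.0503 to 0.134 in TOTAL and -0.0172 to 0.263 in POLYA. The block changed no other call count by over 1.5 times. The median code difference in M TOTAL was -0.335 to -0.117 with a library left out, and that in G1 TOTAL was -0.097 to 0.117, above 0 without G1 code 14 replicate 1 or G1 code 18 replicate 3. The cause of these shifts was not tested, except that fits with a library left out also test 58 to 59 members in TOTAL and 24 to 25 in POLYA.

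Depth limits the low members. Levels below 3 counts were not detectable in a single library, and 12 members had 12 or fewer counts over all TOTAL libraries and were left out by the low-count filter in fits of all libraries.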
